A study of Homo sapiens with 6 samples.

Results

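The nuclear genes for the subunits of the 5 oxidative phosphorylation complexes were followed in MOLP-8 cells, an established human multiple myeloma cell line, after CRISPR targeting of LIN28B. Members were chosen by symbol: NDUFA, NDUFB, NDUFC, NDUFS and NDUFV genes, SDHA to SDHD, UQCR genes and CYC1, the widely expressed cytochrome c oxidase subunits and the ATP5 genes, without pseudogenes. The rule matched 77 symbols in 81 entries among 57886 gene identifiers, of which 36 symbols belong to complex I, 4 to complex II, 9 to complex III, 11 to complex IV (NDUFA4 included) and 17 to complex V. The rule itself uses symbols and no measured value. NDUFS1 had a failed estimate in control library 1, which left 76 symbols usable in all 6 libraries.

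Both groups carried the lentiCRISPRv2 vector and were kept under puromycin. The 3 control libraries came from cells with a scrambled sequence, and the 3 LIN28B KO libraries from cells with an sgRNA against LIN28B, an RNA-binding protein that holds back maturation of the let-7 microRNAs. The sample titles call the targeted cells KD and the condition label calls them KO, the name used here. The comparison asks how transcript levels differ once LIN28B is targeted. No label says that replicate libraries stem from separate cultures, and p-values cover no more than their spread, which can be technical.

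Oxidative phosphorylation moves electrons from NADH (complex I) and succinate (complex II) through ubiquinone, complex III and cytochrome c to oxygen at complex IV, and complex V uses the resulting proton gradient to make ATP. Complex II is wholly nuclear-encoded, whereas the others combine nuclear and mitochondrial gene products. Myeloma cells derive from plasma cells, which make large amounts of immunoglobulin, and respiration is one of their sources of ATP.

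The let-7 link can be read from sequence. All 9 mature let-7 names in RefSeq (GRCh38.p14) share 1 seed, GAGGUAG, shown in capitals in let-7a, which is encoded at chr9:94175962-94175983 on the plus strand. Its 7-base match in an mRNA is CTACCTC. On the longest 3′ UTR per gene in GENCODE 29, 3 of 75 tested member entries (4%) held that match, against 1241 of 11309 tested genes (11%), and the median UTR length was 449 bases in members and 1370 bases in all. The let-7a sequence and the matches in 2 of these genes, NDUFA4 and ATP5G3, in capitals on the mRNA strand, are printed because they are places where these transcripts could pair with the let-7 seed. 
hsa-let-7a-5p: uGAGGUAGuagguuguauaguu
NDUFA4, first match: tcactgcagcctCTACCTCccgggctt
NDUFA4, second match: attgcttcattcCTACCTCtgttgaga
ATP5G3: gaggtagagctgCTACCTCgtttttag
A match is a description of letters and not a measured binding site. The levels of NDUFA4 and ATP5G3 are given with their complexes, and neither was called.

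The promoters of these genes are known for sites of NRF1, of ETS factors such as GABPA, and of YY1. RefSeq promoter windows (GRCh38.p14, 250 bases before to 50 bases after each start) matched 61 of the 77 symbols with 73 windows. On either strand, GCGCANGCG (NRF1) was found in 28.8% of member windows, against 7.52% of 35116 windows of all genes and 13.1% of 14539 windows of tested genes. CCGGAAG (ETS) was found in 28.8% of member windows against 10.3% and 17.7%, and AAGATGGC (YY1) in 17.8% against 2.89% and 4.95%. The letters AAGGTCA, read by ERR, were in 15.1% of member windows against 3.92% and 2.65%, TGACGTCA (CRE) in 6.85% against 1.85% and 2.86%, and GGGCGG (GC box) in 61.6% against 45% and 65.3%. NRF1 matches can overlap themselves on the opposite strand, and the share counts each window once. Windows of the same gene can overlap, so a single genomic match can count more than once, as the ERR match of NDUFA5 does. The windows below belong to genes whose levels are described with their complexes and show 1 match each, in capitals on the strand of the gene.
NDUFS7, NRF1, chr19:1383823-1383851 plus strand: ttccggtttcCGCATGCGCtccgagccgc
NDUFS7, YY1, chr19:1383914-1383941 plus strand: ggccgaggccAAGATGGCggtgctgtca
SDHA, NRF1, chr5:218144-218172 plus strand: ggtccgctttGCGCAGGCGcggcgccccc
SDHB, YY1, chr1:17054005-17054032 minus strand: gtcaggagccAAGATGGCggcggtggtc
UQCRC1, NRF1, chr3:48609674-48609702 minus strand: tacggtactgCGCCTGCGCcgcgaccgcc
UQCRFS1, NRF1, chr19:29213163-29213191 minus strand: cgcctcctcgCGCCTGCGCcgtggttgga
UQCRH, ETS, chr1:46303642-46303668 plus strand: gtgtgccgcaCTTCCGGccagatcgcc
COX4I1, ETS, chr16:85799687-85799713 plus strand: gccttgctctCTTCCGGtcgcgggaca
ATP5F1, YY1, chr1:111449452-111449479 plus strand: cttgtgagcgGCCATCTTggtcctgccc
Where the capitals read as the reverse complement of the motif, the match lies on the opposite strand. The median log2 fold change of members (LIN28B KO minus control, 6 libraries) with a given motif lay between -0.36 (YY1, 12 members) and -0.29 (NRF1, 21 members), against -0.31 over all tested members, and differences between motif groups were not tested.

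Values were FPKM, fragments scaled to transcript length and to library size. LIN28B itself was at 23.3, 24.3 and 25.5 FPKM in control libraries 1 to 3 and at 8.41, 8.17 and 5.84 FPKM in the 3 LIN28B KO libraries in order, and fell to 30.7% of the control mean (limma adjusted p = 0.0207). LIN28B KO library 3 stood apart: its median log2 ratio to the control mean over all 15803 tested genes was -0.35, whereas it was -0.01 in each of the other LIN28B KO libraries. Fibroblast markers (4 genes) summed to 11.3 FPKM in that library and to between 2.85 and 5.45 FPKM in the others, with COL1A2 and PDGFRB under 1 FPKM in every library, and their part in the results was not tested. The defining markers of T and NK cells, myeloid cells and erythroid cells summed to at most 1.62 FPKM in any library (CD3D, NKG7, FCGR3A and HBA1 were listed at 0), and the 7 plasma cell markers to between 2335 and 2416 FPKM in 5 libraries and 1643 FPKM in LIN28B KO library 3. Without that library, over protein-coding genes, 2 of the 7 rose (limma): SLAMF7 (log2 fold change 0.93, adjusted p = 0.0198) and TNFRSF17 (0.41, adjusted p = 0.0329). In that fit 1.08% of all tested genes were called higher. With 6 libraries 0 of the 7 were called (limma adjusted p = 0.235 for SLAMF7 and 0.420 for TNFRSF17). What sets LIN28B KO library 3 apart was not tested, so results are given with and without it. In bulk RNA, fewer cells of a type and less RNA per cell cannot be told apart.

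Respiratory chain transcripts were abundant in these myeloma cells. The median member had a control mean of 156 FPKM, against 11 FPKM over tested genes. Of the 76 usable members, 57 had a control mean of at least 100 FPKM, a level that 7.2% of tested genes reached, and 13 reached 300 FPKM. COX7C, a small subunit of cytochrome c oxidase, was the most abundant, and ATP5L2, a copy of ATP5L, was the lowest with a control mean of 0.191 FPKM. The median coefficient of variation among control libraries was 5.26%. The deposited bounds, taken as 2 SDs from the estimate, lay a median of 5.83% away from it in control library 1 and 7.77% in LIN28B KO library 3. On that reading, 1 SD of the estimate was smaller than the spread between controls.

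**Figure D1:**
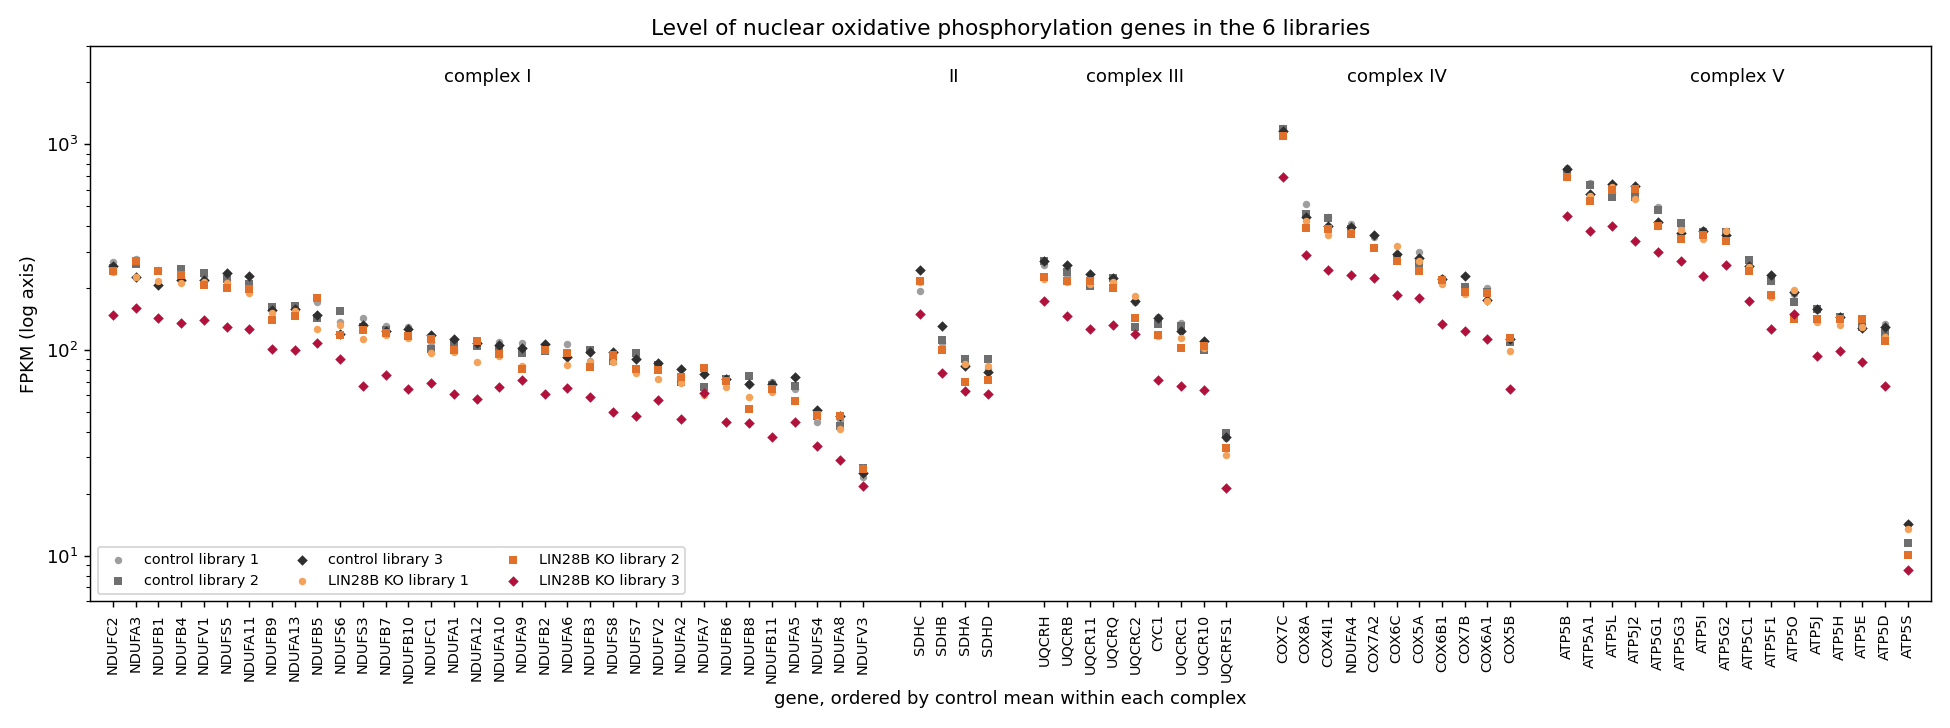
FPKM (vertical log axis) of nuclear oxidative phosphorylation genes, ordered by control mean within its complex, with 1 point per library. ATP5L2 lies under the axis range and NDUFS1 is left out for its failed estimate. The grey control points and the orange points of LIN28B KO libraries 1 and 2 mostly lie close together, whereas the dark red points of LIN28B KO library 3 were the lowest for 74 of the 77 tested entries.

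Most members lay slightly under their control level in LIN28B KO libraries 1 and 2 and well under it in library 3, and none passed the test over all 6 libraries. Over the 77 tested entries, the log2 ratio to the mean of the controls had a median of -0.13, -0.13 and -0.69 in LIN28B KO libraries 1 to 3. Of these entries 0 were called lower and 0 higher by limma (adjusted p under 0.05), where 0.0316% of all 15803 tested genes were called lower and 0.0633% higher. Adjusted p ranged from 0.306 to 0.916, and 7 entries (9.09%) had an unadjusted p under 0.05 and a lower mean, against a background of 8.73%. The median log2 fold change was -0.31 in members and -0.13 over all tested genes, and 76 of 77 entries lay below 0, as did 66.5% of all genes.

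Groups did not overlap for 40 of 77 entries (51.9%), in which each LIN28B KO library was below each control library, against 20.1% of all tested genes. None was above in all 3, against 7.61%. LIN28B KO library 3 was the lowest of the 6 libraries for 74 of 77 entries (96.1%), against 59.9% of tested genes. LIN28B KO libraries 1 and 2 alone lay below all controls for 40 entries (51.9%), against 22% of tested genes. An exact permutation test of 3 against 3 libraries cannot give a two-sided p under 0.1. By complex, entries with all 3 LIN28B KO libraries below all controls numbered 19 of 36 in complex I, 1 of 4 in complex II, 5 of 10 in complex III, 6 of 11 in complex IV and 9 of 16 in complex V.

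Abundant genes other than members also had medians below 0 in the LIN28B KO libraries, and the member medians were below theirs except in library 1 from 300 FPKM upward. For control means from 100 to under 300 FPKM, the median log2 ratio in LIN28B KO libraries 1 to 3 was -0.12, -0.13 and -0.72 in 44 member entries and -0.10, -0.09 and -0.61 in 802 other genes. From 300 FPKM upward it was -0.13, -0.13 and -0.70 in 13 members and -0.14, -0.12 and -0.66 in 279 others. From 30 to under 100 FPKM it was -0.14, -0.10 and -0.65 in 16 entries and -0.07, -0.07 and -0.51 in 2827 others. Whether members differ from other genes of like level was not tested.

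**Figure D2:**
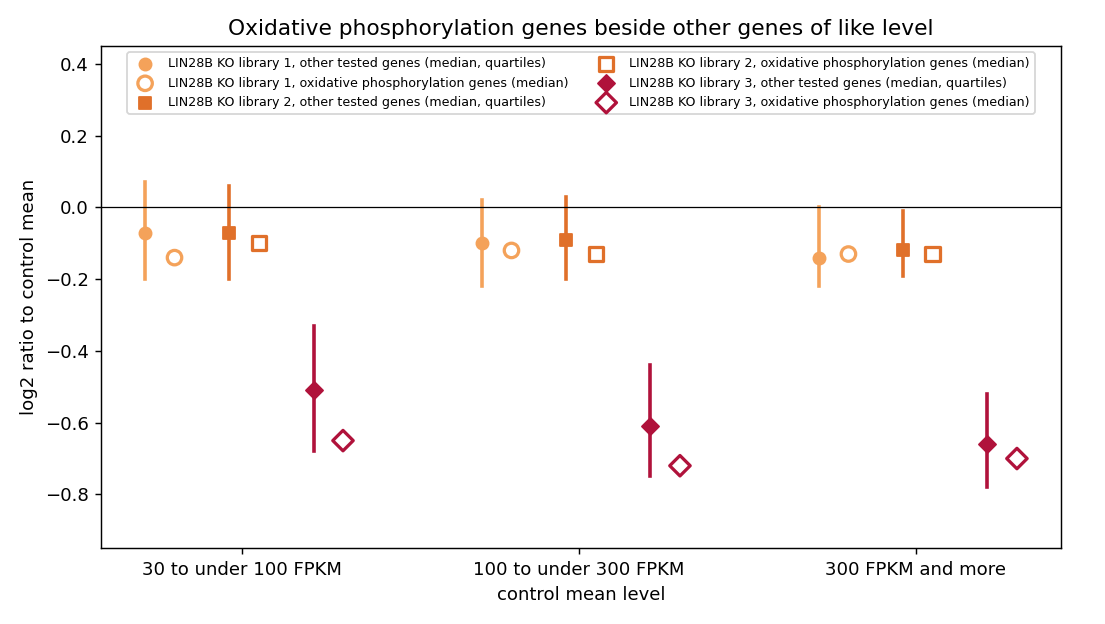
Median log2 ratio to the control mean (vertical axis) in 3 classes of control level (horizontal axis), for each LIN28B KO library. Filled symbols with bars are the median and quartiles of other tested genes and open symbols the median of oxidative phosphorylation genes. Open symbols lie in all 3 classes between -0.14 and -0.10 for libraries 1 and 2 and between -0.72 and -0.65 for library 3.

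A scaling that removes level-dependent shifts between libraries took most of the difference away. After cyclic loess normalization, which centres ratios along the range of levels, the member medians in LIN28B KO libraries 1 to 3 were -0.04, -0.04 and -0.11, and those of all tested genes 0.01, 0.00 and 0.01. The median log2 fold change of members was then -0.06, with 60 of 77 below 0 (49.2% of all tested genes), and 0 were called (lowest adjusted p = 0.129, limma), where 0.342% of tested genes were called lower and 0.361% higher. Entries below all controls numbered 11 (14.3%), against 13.3% of all tested genes, and 1 entry lay above, NDUFV3, against 13.7%. By complex, the 11 were 6 in complex I, 0 in complex II, 3 in complex III, 0 in complex IV and 2 in complex V.

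Without LIN28B KO library 3 the shift was smaller and 2 members were called. In that fit over protein-coding genes, 11308 were tested and 3.02% were called lower. UQCRH and ATP5F1 fell, which are 2 of 77 entries (2.6%), a share near the background, and none rose where 1.08% of tested genes did. The member median was -0.11 against -0.04 over tested protein-coding genes, and 26 entries (33.8%) had an unadjusted p under 0.05 with a lower mean, against 15.4%. When non-coding genes were tested as well, 0 members were called (lowest adjusted p = 0.0736), where 0.267% of 15336 genes were called lower and 0.15% higher. With cyclic loess on the 5 libraries and protein-coding genes, 0 members were called, where 1.17% of genes were called lower and 1.08% higher, and the median was -0.03.

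**Figure D3:**
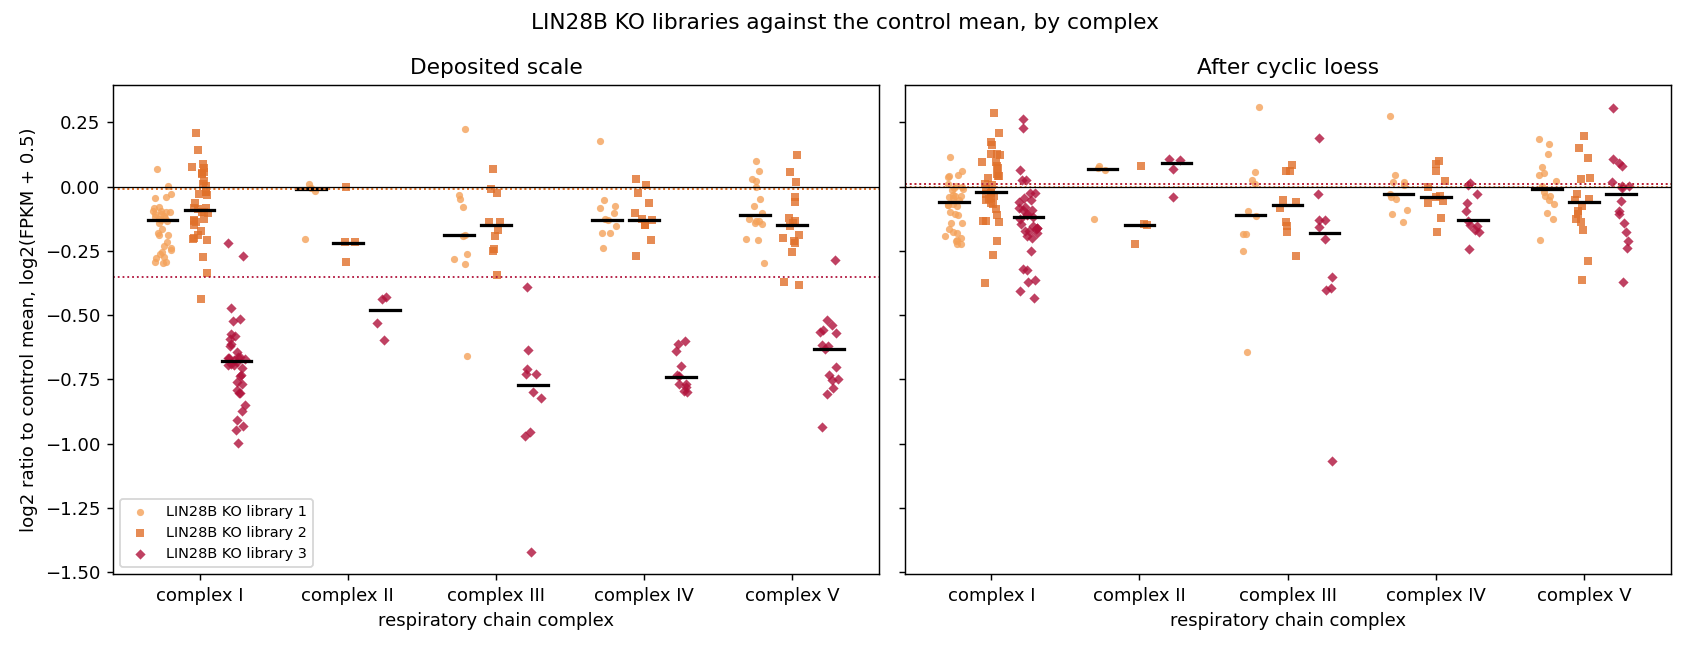
Log2 ratio of each LIN28B KO library to the control mean on log2(FPKM + 0.5) (vertical axis) for each tested entry, by complex, on the deposited scale (left) and after cyclic loess (right). Black bars are medians per complex and dotted lines the median of all tested genes in each library. The second NDUFA7 entry is not drawn, and the lowest point of complex III is the second UQCR11 entry. On the left, library 3 medians lie between -0.77 (complex III) and -0.48 (complex II), and on the right between -0.18 and 0.09.

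Complex I oxidises NADH and is the largest of the complexes. Its median log2 fold change was -0.31 in 6 libraries and -0.11 without LIN28B KO library 3 (protein-coding genes). NDUFV1, the FMN-binding subunit that takes electrons from NADH, was at 228, 238 and 219 FPKM in controls 1 to 3 and at 213, 206 and 139.6 FPKM in LIN28B KO 1 to 3. NDUFS1, the largest iron-sulfur subunit of the same module, was listed at 73.8, 75.0 and 70.8 FPKM in controls and at 68.3, 66.7 and 52.3 FPKM in LIN28B KO, and was not tested. For NDUFV1 every LIN28B KO library was under every control, by a small margin in libraries 1 and 2. After cyclic loess its groups overlapped. The NDUFS1 value of control library 1 is the failed estimate, and its LIN28B KO values were below those of control libraries 2 and 3.

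The lowest fold changes of complex I were those of NDUFS7, which carries the iron-sulfur cluster next to the quinone site, and NDUFB8, an accessory subunit of the membrane arm. NDUFS7 was at 91.5, 96.7 and 90.3 FPKM in controls and at 77.3, 80.7 and 47.9 FPKM in LIN28B KO (log2 fold change -0.47, standard error 0.21, limma adjusted p = 0.373). NDUFB8 was at 68.5, 74.6 and 68.5 FPKM in controls and at 59.3, 51.8 and 44.0 FPKM in LIN28B KO (log2 fold change -0.45, standard error 0.15, limma adjusted p = 0.306). Both were lower in 3 of 3 LIN28B KO libraries, also after cyclic loess, and neither was called. Without LIN28B KO library 3, over protein-coding genes, the log2 fold change was -0.23 for NDUFS7 (limma adjusted p = 0.0874) and -0.34 for NDUFB8 (limma adjusted p = 0.0707). NDUFA5 and NDUFA9, accessory subunits singled out here for an unadjusted p under 0.05, were at 82.3% and 80.1% of control in the mean of LIN28B KO libraries 1 and 2.

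Other accessory subunits named here were NDUFV3, NDUFC2 and NDUFA3, of which NDUFV3 and NDUFA3 had overlapping groups. NDUFV3, of the NADH module, was at 24.2, 26.8 and 25.3 FPKM in controls and at 26.7, 26.3 and 21.7 FPKM in LIN28B KO, so that libraries 1 and 2 lay within the control range. NDUFC2, the most abundant of complex I, was at 266, 251 and 255 FPKM in controls and at 240.2, 243 and 147 FPKM in LIN28B KO. NDUFC2 lay below the controls in each library, though not after cyclic loess. NDUFA3 was at 275, 262 and 227 FPKM in controls and at 227, 269.6 and 159.7 FPKM in LIN28B KO, where library 2 lay between the controls.

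NDUFA7 has 2 overlapping identifiers on chromosome 19, and the split between them differed from library to library. The main entry was at 81.4, 65.7 and 76.5 FPKM in controls and at 60.5, 81.9 and 61.5 FPKM in LIN28B KO. The second entry, with the only log2 fold change above 0 (0.37, standard error 1.56), was at 0.00210, 12.2 and 4.84 FPKM in controls and at 17.6, 0.000958 and 7.58 FPKM in LIN28B KO. Where one entry was high the other was low, and their sum was steadier, at 81.4, 77.9 and 81.3 FPKM in controls and 78.0, 81.9 and 69.1 FPKM in LIN28B KO. Values of either entry alone are therefore uncertain. NDUFB8, SDHD and UQCR11 also have a second identifier at an overlapping locus, and each second entry was much lower than the first. The second UQCR11 entry, at 12.9, 10.5 and 12.9 FPKM in controls and at 7.43, 12.6 and 4.18 FPKM in LIN28B KO, had the lowest log2 fold change of all entries (-0.67) and was not called.

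Complex II oxidises succinate and also works in the citric acid cycle. Its 4 genes had a median log2 fold change of -0.23, and -0.13 without LIN28B KO library 3 (protein-coding genes). SDHA, the flavoprotein that oxidises succinate, was at 84.2, 90.3 and 83.0 FPKM in controls and at 85.4, 70.0 and 63.3 FPKM in LIN28B KO. SDHB, the iron-sulfur subunit, was at 108, 112 and 130.1 FPKM in controls and at 101, 100.1 and 76.8 FPKM in LIN28B KO. SDHC, a membrane anchor and the most abundant of the 4, was at 194, 217 and 244 FPKM in controls and at 214, 217 and 150.0 FPKM in LIN28B KO. Groups overlapped for SDHA and SDHC and did not for SDHB, whose log2 fold change of -0.34 (standard error 0.16) was not called (limma adjusted p = 0.384). After cyclic loess the SDHB groups overlapped as well.

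Complex III passes electrons from ubiquinol to cytochrome c. Its median log2 fold change was -0.37 in 6 libraries and -0.21 without LIN28B KO library 3 (protein-coding genes), both the lowest of the 5 complexes. The difference between complexes was not tested. UQCRH, the hinge protein that lies beside cytochrome c1 (chr1:46769303-46782448, GRCh37), was at 259.7, 272 and 272 FPKM in controls and at 220.3, 226 and 172 FPKM in LIN28B KO. Without LIN28B KO library 3, over protein-coding genes, it fell 1.20-fold (log2 fold change -0.26, standard error 0.05, limma adjusted p = 0.0382). Over all genes without that library it was not called (limma adjusted p = 0.0736). With all 6 libraries it was not called (log2 fold change -0.39, limma adjusted p = 0.351), nor with cyclic loess on the 5 libraries (log2 fold change -0.16, limma adjusted p = 0.133). Its near-identical copy UQCRHL was not analysed here, and how reads common to both were assigned is unknown, so the UQCRH value is uncertain to that extent.

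The electron-carrying subunits CYC1 and UQCRFS1 had LIN28B KO means at 72.7% and 74.8% of control. CYC1, cytochrome c1, was at 144, 134 and 143 FPKM in controls and at 117, 118 and 71.5 FPKM in LIN28B KO (limma adjusted p = 0.365, and 0.0582 without library 3 over protein-coding genes). UQCRFS1, the Rieske iron-sulfur protein, was at 37.5, 39.2 and 37.6 FPKM in controls and at 30.8, 33.3 and 21.3 FPKM in LIN28B KO. UQCRC1, a core protein, was at 135, 131 and 124 FPKM in controls and at 114, 102 and 66.9 FPKM in LIN28B KO. In these genes each LIN28B KO library was below each control, also after cyclic loess. UQCRB was at 229.7, 239.9 and 259.7 FPKM in controls and at 213, 216 and 146 FPKM in LIN28B KO. UQCRC2, the other core protein, was at 172, 129.8 and 174 FPKM in controls and at 183, 142 and 119.5 FPKM in LIN28B KO, and its groups overlapped.

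Complex IV, cytochrome c oxidase, reduces oxygen, and its nuclear subunits surround a mitochondrially encoded core. Its median log2 fold change was -0.32, and -0.11 without LIN28B KO library 3 (protein-coding genes). COX7C was at 1194, 1190.2 and 1157 FPKM in controls and at 1099, 1099.8 and 693 FPKM in LIN28B KO. COX4I1, the regulatory subunit IV, was at 441, 439 and 401 FPKM in controls and at 361, 385 and 245 FPKM in LIN28B KO. COX8A was at 511, 458 and 440.0 FPKM in controls and at 422, 389 and 289 FPKM in LIN28B KO. On the deposited scale the 3 genes had non-overlapping groups with library 3 the lowest, and log2 fold changes of -0.32, -0.40 and -0.37 that were not called. After cyclic loess, 0 of the 11 entries of complex IV had all LIN28B KO libraries below all controls. NDUFA4, first named as a complex I protein, was at 409, 388 and 397 FPKM in controls and at 375, 364 and 231 FPKM in LIN28B KO. COX6C was at 273, 280.5 and 291 FPKM in controls and at 318, 269 and 185 FPKM in LIN28B KO, with library 1 above every control.

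Complex V, ATP synthase, has a catalytic F1 head, a membrane ring of c subunits and a stator stalk that holds the head still. Its median log2 fold change was -0.29, and -0.12 without LIN28B KO library 3 (protein-coding genes). ATP5B, the catalytic beta subunit, was at 767, 732 and 759 FPKM in controls and at 689, 690.4 and 448 FPKM in LIN28B KO. ATP5A1, the alpha subunit, was at 651, 629.9 and 571 FPKM in controls and at 558, 528 and 379 FPKM in LIN28B KO. The 2 genes were the most abundant of the complex, and in both all LIN28B KO libraries were below all controls. After cyclic loess this held for neither. In the stalk of the head, ATP5D (delta) was at 133, 121 and 129.5 FPKM in controls and at 115, 110.1 and 66.6 FPKM in LIN28B KO. ATP5E (epsilon) was at 132, 128 and 127 FPKM in controls and at 129, 141 and 86.9 FPKM in LIN28B KO, where libraries 1 and 2 were not below the controls.

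ATP5F1, stator subunit b (chr1:111991486-112005395, GRCh37), was the second member called without LIN28B KO library 3 among protein-coding genes. It was at 217, 216 and 232 FPKM in controls and at 180.2, 186 and 126 FPKM in LIN28B KO. It fell 1.21-fold over 5 libraries and protein-coding genes (log2 fold change -0.28, standard error 0.05, limma adjusted p = 0.0440). Over all genes in the 5 libraries it was not called (limma adjusted p = 0.083). With 6 libraries it was at a log2 fold change of -0.45 (limma adjusted p = 0.351), and with cyclic loess on the 5 libraries at -0.18 (limma adjusted p = 0.134).

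The 3 genes for subunit c encode the same mature ring protein behind different import sequences. ATP5G1 was at 495, 479.8 and 416 FPKM in controls and at 401, 402 and 298 FPKM in LIN28B KO. ATP5G2 was at 378, 374 and 363 FPKM in controls and at 379, 337 and 259 FPKM in LIN28B KO. ATP5G3 was at 401, 413 and 368 FPKM in controls and at 381, 345 and 271 FPKM in LIN28B KO. Groups did not overlap for ATP5G1 and overlapped for the other 2, and log2 fold changes were -0.35, -0.21 and -0.26 with standard errors of 0.17. After cyclic loess the ATP5G1 groups overlapped too. None of the 3 was called, and their differences from each other were not tested.

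The balance among complexes I, III, IV and V was nearly constant, and the small share of complex II varied more for its size. Summed over the 76 usable members, FPKM came to 16220, 15830 and 15990 in controls and to 14820, 14840 and 9915 in LIN28B KO. The mean of LIN28B KO libraries 1 and 2 was 92.6% of the control mean, and library 3 was 61.9%. In library 3 the sum of complex II was at 69.8% of its control mean. Complexes I, III, IV and V were at 61.2%, 60.4%, 60.3% and 63.45%, and the difference was not tested. Complex I took between 27.3% and 28.8% of the sum over the 6 libraries, complex II between 2.88% and 3.54%, complex III between 9.15% and 9.88%, complex IV between 25% and 26% and complex V between 33.6% and 34.5%. Log levels of members correlated closely between groups. Pearson's r of log2(FPKM + 0.5) between the control mean and LIN28B KO libraries 1 to 3 was 0.971, 0.981 and 0.977 over 77 entries. It is a description across genes that share each library and are not independent replicates. A shift shared by all members leaves r nearly unchanged, and members differ widely in level. The value of r therefore does not bear on the balance between complexes.

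**Figure D4:**
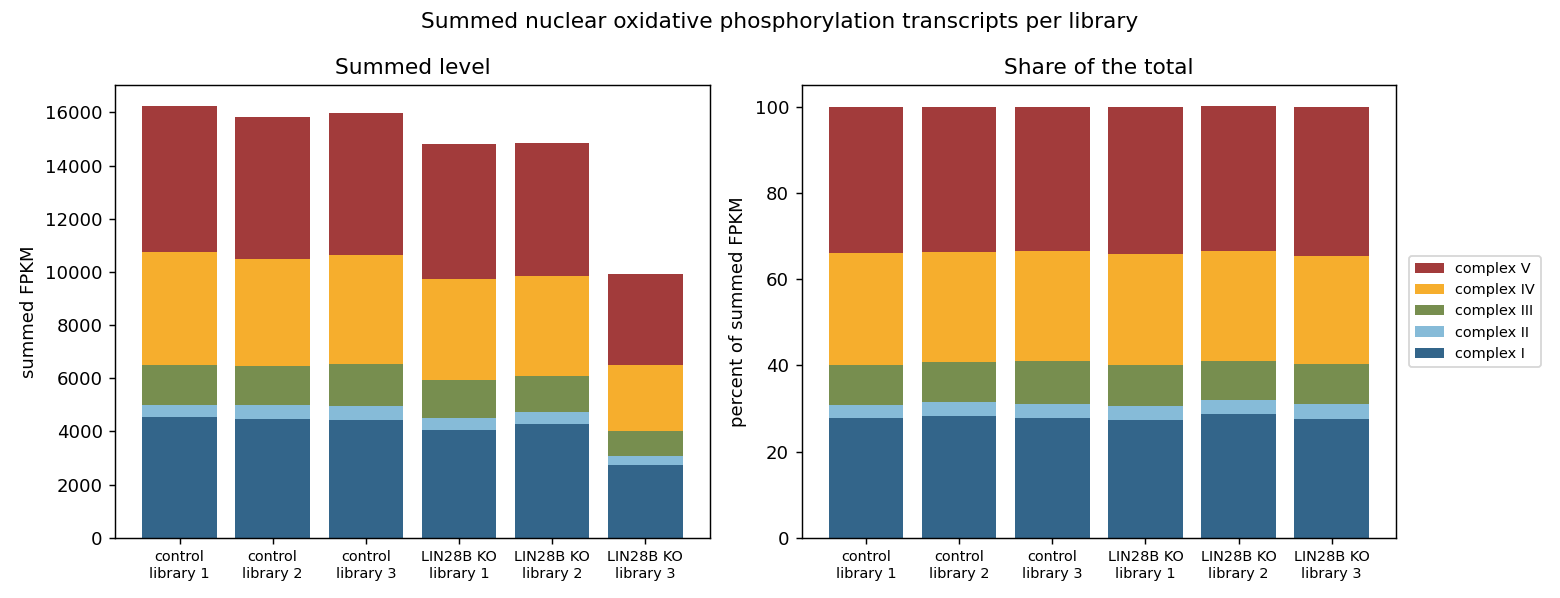
Summed FPKM of nuclear oxidative phosphorylation genes in each library (left, linear axis from 0) and the percent of that sum held by each complex (right). Bars are stacked by complex, from complex I at the bottom to complex V at the top. The sum is 14820 FPKM in LIN28B KO library 1, 14840 FPKM in library 2 and 9915 FPKM in library 3. Complexes I, III, IV and V keep nearly the same share, and complex II lies between 2.88% and 3.54%.

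Genes that serve the complexes also had medians below 0. None of the assembly factors (42 tested), regulators (17), electron carriers (12), or enzymes of the citric acid cycle and pyruvate dehydrogenase (18) was called with 6 libraries. Their median log2 fold changes were -0.26, -0.26, -0.21 and -0.29, against -0.13 over all tested genes. Without LIN28B KO library 3, over protein-coding genes, 1 assembly factor, 1 regulator, 1 carrier and 0 cycle enzymes were called lower and none higher, where 3.02% of tested genes were called lower. The medians in that fit were -0.09, -0.09, -0.14 and -0.15 in the same order, against -0.04 over tested genes. With cyclic loess added they were -0.04, -0.06, -0.11 and -0.09, against 0.00.

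The assembly factor was UQCC2, which helps to make cytochrome b of complex III. It was at 86.5, 80.8 and 85.2 FPKM in controls and at 62.2, 65.4 and 34.2 FPKM in LIN28B KO. Over 5 libraries and protein-coding genes, the setting also used for CYCS and MYC, it fell with a log2 fold change of -0.40 (limma adjusted p = 0.0314). CYCS, cytochrome c itself, was at 198.5, 195.6 and 208.8 FPKM in controls and at 166, 162.5 and 105.7 FPKM in LIN28B KO, with a log2 fold change of -0.29 over 5 libraries (limma adjusted p = 0.0378). MYC, a transcription factor known to drive mitochondrial genes, was at 214.9, 211.3 and 224.3 FPKM in controls and at 170.6, 174.3 and 111.9 FPKM in LIN28B KO, with a log2 fold change of -0.33 over 5 libraries (limma adjusted p = 0.0298). With cyclic loess added, none of these was called, and adjusted p was 0.0533, 0.103 and 0.0693 in that order (limma). The coactivator PPARGC1A was low, with a control mean of 3.91 FPKM and a LIN28B KO mean of 2.71 FPKM, and was not called.

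Of the 13 mitochondrially encoded subunits, 10 were listed at 0 in every library. None of these carried a failed status, and whether 0 reflects their transcript level is unknown, so nuclear and mitochondrial subunits could not be compared. MT-ATP6, of complex V, was at 184.7, 183.6 and 199.5 FPKM in controls and at 179.2, 175.2 and 120.4 FPKM in LIN28B KO, and was not called. Among subunits and isoforms outside the rule, 6 of 13 were tested and 0 called. The tissue-specific forms COX6A2, COX7A1 and COX8C were at or under 1.35 FPKM in every library, and COX4I2 was listed at 0.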

How the data were processed

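RNA sequencing covered 3 control and 3 LIN28B KO libraries of MOLP-8. The submitters' processing notes name GRCh37 and the tools cutadapt, TopHat2 and HTSeq, without versions or roles. Per the file headers, the authors deposited FPKM per gene with bounds and a status; they hold no read totals. The median member had 663 to 1178 fragment equivalents per library, computed as if the bounds held counting error only. For ATP5J2 this gave 620 at 573 FPKM in control library 1 and 144 at 623 FPKM in control library 3. The equivalents are therefore not read counts. Entries of 1 identifier were summed, and genes with a failed status in any library were left out. Log2(FPKM + 0.5) of 15803 genes with at least 1 FPKM in 3 libraries was tested with limma 3.58.1 (R 4.3.3, variance trend, no covariates, two-sided), adjusted by Benjamini-Hochberg over all tested genes at 0.05. Of the 81 member entries, 77 passed, NDUFS1 was left out and the second entries of NDUFB8 and SDHD and ATP5L2 were too low. Members and lists were chosen with earlier results of these data known. Named genes were, per complex, the 2 highest levels, the 2 lowest and the 1 highest fold changes, called members, fixed catalytic subunits, and list genes by p. Some results the rule picks are not reported here. On simulated data, 0%, 38%, 72% and 86% of genes were recovered at simulated log2 fold changes of 0.5, 1, 2 and 3 with 6 libraries and 15803 genes (4 false calls), and 16%, 54%, 82% and 90% with 5 libraries and 15336 genes (5 false calls). Alternatives were other pseudocounts, filters, scalings and gene sets, a replicate block, and each library left out.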

Additional observations from a re-analysis of the deposited data

How the results depend on the processing

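Calls depended on LIN28B KO library 3 and on the genes tested: 0 members were called with all 6 libraries under every pseudocount, filter and scaling tried, and 2 lower without LIN28B KO library 3 among protein-coding genes. The numbers of calls over all tested genes were 15 with 6 libraries, 111 with cyclic loess, 64 without LIN28B KO library 3, 463 in the same set restricted to protein-coding genes and 254 with cyclic loess added. The member median log2 fold change was -0.06 with cyclic loess, and -0.03 with cyclic loess and without LIN28B KO library 3, for all or for protein-coding genes. Relative to the median of all tested genes, members were at -0.18 in the reported fit, -0.34 without a filter on low values, -0.07 with quantile normalization and -0.06 with cyclic loess. Without LIN28B KO library 3 that difference was -0.09, -0.07 for protein-coding genes and -0.03 with cyclic loess in either set. Leaving out 1 library at a time gave 0 called members in each direction when all genes were tested, member medians from -0.42 to -0.11 and differences from -0.23 to -0.09. Deviations from the group mean had correlations of -0.021, 0.044 and -0.033 between same-numbered libraries of the groups. Between libraries of different number they lay from -0.079 to 0.086. With deviations from means of 3 libraries, this check cannot exclude a pairing, and no label gives one. With a replicate block 0 members were called, the median was -0.31 and the difference -0.18.

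Over the 77 tested entries, 17 log2 fold changes lay above 0 with cyclic loess and 6 without LIN28B KO library 3. With both, over protein-coding genes, 28 lay above 0. None was called. The values that follow cover only the members named by the rule given above, not every such entry. With quantile normalization ATP5E was at 0.04, COX6C at 0.02, NDUFV3 at 0.10, SDHC at 0.01 and UQCRC2 at 0.09. With cyclic loess ATP5E was at 0.09, ATP5G2 at 0.06, ATP5G3 at 0.02, COX6C at 0.10, NDUFA3 at 0.01, NDUFV3 at 0.14, SDHC at 0.07 and UQCRC2 at 0.15. Without LIN28B KO library 3, among all or protein-coding genes, ATP5E was at 0.06, COX6C at 0.06, NDUFV3 at 0.06 and UQCRC2 at 0.04. With cyclic loess and without that library, over all genes, ATP5E was at 0.14, ATP5G2 at 0.04, COX6C at 0.15, COX7C at 0.00, NDUFA3 at 0.05, NDUFC2 at 0.00, NDUFV3 at 0.10, SDHC at 0.08 and UQCRC2 at 0.13. Over protein-coding genes in that setting, ATP5E was at 0.14, ATP5G2 at 0.05, COX6C at 0.16, COX7C at 0.02, NDUFA3 at 0.06, NDUFC2 at 0.01, NDUFV3 at 0.11, SDHC at 0.08 and UQCRC2 at 0.13. Without control replicate 2 NDUFV3 was at 0.00. Over the fits that leave out 1 library, ATP5E lay between -0.29 and 0.06, COX6C between -0.33 and 0.06, and UQCRC2 between -0.27 and 0.04. The cause of these changes was not tested. With 3 libraries a group, the simulation recovered 0% of genes at a log2 fold change of 0.5, its smallest change. Smaller changes, such as the member median of -0.31, were not simulated. Noise was drawn separately for each gene, without a shift shared by a whole library. The simulation therefore cannot say how often changes of the member size would be called.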
